A study of Mus musculus with 6 samples.

Results

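Pluripotency genes other than the induced factors were followed by name across untreated and doxycycline-treated mouse intestinal organoids, namely Nanog, Zfp42, Esrrb, Tfcp2l1, Lin28a, Sall4, Tdh, L1td1, Gdf3 and Dppa5a. All 10 were present among the 55416 gene identifiers of the tables, matched through their Ensembl identifiers. RNA-seq was done on small intestinal organoids, gel-embedded epithelial cultures grown in IntestiCult from mice 4 to 8 weeks old. Every organoid, controls included, was Rosa26-rtTA Tg/Tg and also Col1A1-TetO-OSKM Tg/Tg, so the doxycycline-responsive transactivator and the cassette of Oct4 (gene Pou5f1), Sox2, Klf4 and Myc were in all 3 groups. Controls received no doxycycline, and treated organoids had it at 0.1 or 0.5 µg/ml for 3 days, with 2 libraries per group. The series calls the libraries biological replicates. Whether they came from separate mice or cultures is not given, so p values measure the spread between these samples, which may be technical. The libraries held 45289760 to 72547738 expected counts, estimated read counts per gene that need not be whole. Levels are given in CPM, counts as a rate of the library total after that total was scaled by TMM factors, which correct for differences in library composition.

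In mouse embryonic stem cells the factors Oct4 and Sox2 bind DNA together and sustain a wider set of genes that defines the naive, ground state. Nanog, Esrrb, Tfcp2l1, Zfp42 and Sall4 encode transcription factors of that set. Lin28a and L1td1 encode RNA-binding proteins, Tdh a mitochondrial enzyme, Gdf3 a secreted ligand, and Dppa5a a KH-domain protein. In reprogramming of other cells, forced expression of the 4 factors comes first and the endogenous network follows. The organoids are epithelial, and the epithelial keratin gene Krt8 was at 1144 ± 45.8 CPM in control and 3102 ± 26.4 CPM at 0.5 µg/ml (SD, n = 2). Krt8 is 1 of 13 intestinal epithelial genes examined. Of these 6 were higher and 7 lower at that dose, beside 34.4% higher and 33.1% lower among all genes tested.

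Of the 10 genes, 8 rose with doxycycline, Dppa5a did not pass the test, and Nanog stayed near zero. The 8 were Zfp42, Esrrb, Tfcp2l1, Lin28a, Sall4, Tdh, L1td1 and Gdf3. Each was called higher at 0.5 µg/ml than in control, higher at 0.1 µg/ml than in control, and higher at 0.5 than at 0.1 µg/ml (adjusted p under 0.05 in a two-sided quasi-likelihood test by edgeR, with adjustment after Benjamini and Hochberg). Among all 16975 genes tested, 34.4% were higher at 0.5 µg/ml than in control, 20.8% were higher at 0.1 µg/ml and 29.8% were higher at 0.5 than at 0.1 µg/ml. Nanog was not tested, and none of the other 9 was called lower, against 33.1%, 13.8% and 29.1% of tested genes in the same order. Most of the 9 had too few control counts to be called lower than control. Tfcp2l1 was the sole gene of the 10 above the low-count filter in both control libraries. The other 8 genes tested passed that filter through treated libraries. The count of 8 called higher and the lack of genes called lower are therefore a description and no support for the set. In bulk RNA, a few cells with much of a transcript and many cells with little of it cannot be told apart.

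**Figure D1:**
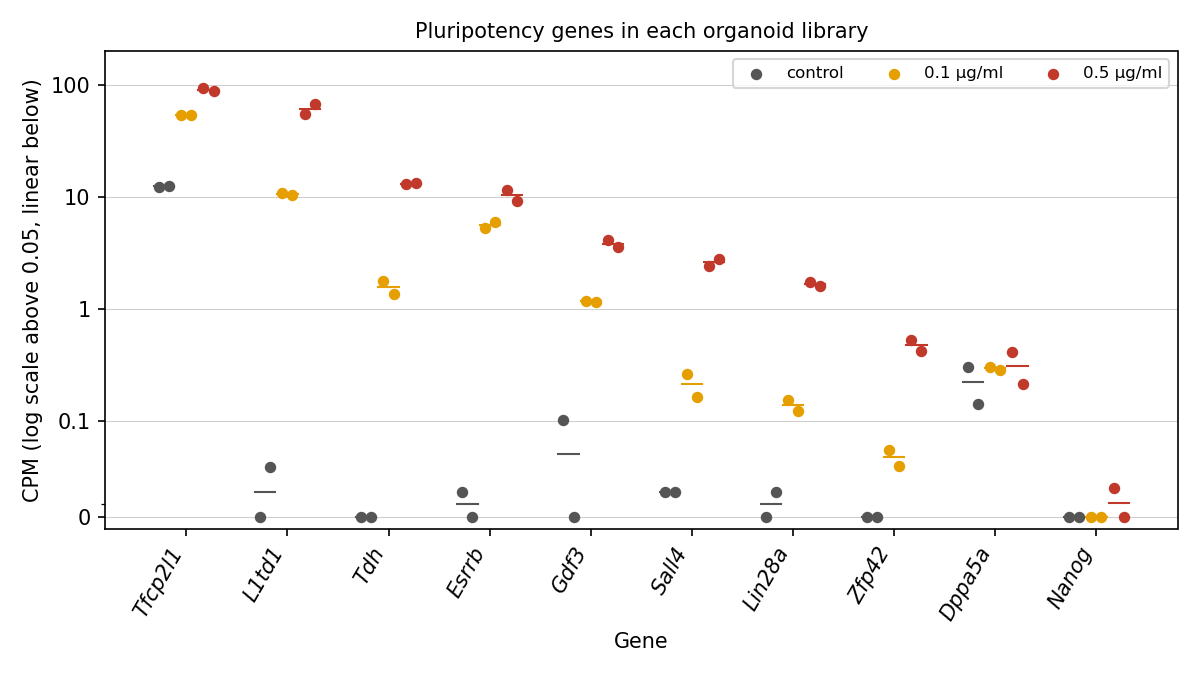
The level of each of the 10 genes is plotted in CPM for every library, on an axis that is logarithmic above 0.05 CPM and linear below it, with a bar at each group mean (2 libraries per group). Tfcp2l1 stood above 12 CPM in control and 8 genes stepped up at both doses, although Zfp42 at 0.1 µg/ml lay near the floor of 3 counts. Dppa5a overlapped across the groups, and Nanog lay at 0 in 5 of 6 libraries.

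The transcription factor Nanog (ENSMUSG00000012396), a homeodomain protein at the centre of the naive network, had no count in either control library and none in either library at 0.1 µg/ml. At 0.5 µg/ml it had 1 count in replicate 1 and 0 in replicate 2. A count of 0 allows up to 3 counts, which is a level of 0.0414 to 0.0687 CPM per library, and the single Nanog count lies within that limit. Nanog was not tested, and a level above the limit was not detected in any group. The promoter of Nanog, which stayed near zero, is shown with those of Zfp42, Lin28a and L1td1, which rose, to compare the letters of motifs that the induced factors are known to bind. The stretches run from 250 bases before to 50 bases after the annotated start, on the gene's strand, from RefSeq on GRCm38.p6. The capitals mark TTTGCAT, the OCT half-site, ACAATG or its reverse complement CATTGT, the SOX half-site, and GGGTGTGG or its reverse complement CCACACCC, a KLF core. The motifs were chosen after the sequences had been seen.
Nanog, chr6:122707239-122707538, plus strand: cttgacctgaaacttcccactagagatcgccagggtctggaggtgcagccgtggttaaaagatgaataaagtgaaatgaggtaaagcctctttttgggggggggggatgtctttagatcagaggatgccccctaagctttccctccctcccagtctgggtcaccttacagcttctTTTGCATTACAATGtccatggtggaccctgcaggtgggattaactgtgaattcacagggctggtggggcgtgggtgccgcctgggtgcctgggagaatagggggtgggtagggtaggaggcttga
Zfp42, chr8:43306960-43307259, minus strand: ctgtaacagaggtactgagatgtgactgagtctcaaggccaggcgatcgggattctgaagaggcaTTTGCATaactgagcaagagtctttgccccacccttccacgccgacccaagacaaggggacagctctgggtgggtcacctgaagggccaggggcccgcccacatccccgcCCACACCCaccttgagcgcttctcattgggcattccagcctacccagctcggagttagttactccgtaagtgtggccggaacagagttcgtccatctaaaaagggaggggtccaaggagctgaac
Lin28a, chr4:134018767-134019066, minus strand: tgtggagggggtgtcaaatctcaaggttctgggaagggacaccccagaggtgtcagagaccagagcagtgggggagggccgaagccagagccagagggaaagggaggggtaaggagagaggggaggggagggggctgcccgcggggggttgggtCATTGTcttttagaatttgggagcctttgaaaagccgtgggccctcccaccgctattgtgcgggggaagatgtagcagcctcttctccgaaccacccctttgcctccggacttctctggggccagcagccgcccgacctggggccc
L1td1, chr4:98726504-98726803, plus strand: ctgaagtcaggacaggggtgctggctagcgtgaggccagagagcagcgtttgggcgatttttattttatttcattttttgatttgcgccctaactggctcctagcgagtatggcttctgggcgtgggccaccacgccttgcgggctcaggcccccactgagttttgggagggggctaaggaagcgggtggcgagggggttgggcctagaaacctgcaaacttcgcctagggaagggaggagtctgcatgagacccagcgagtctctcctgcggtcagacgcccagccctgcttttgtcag

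In the Nanog promoter TTTGCAT was followed, after 1 base, by ACAATG, the composite arrangement that Oct4 and Sox2 are known to bind. The pair began 75 bases before this start, and 151 bases before the start of a second annotated Nanog transcript, whose window overlaps this one. Of 32851 promoters of the same length, searched on both strands, 2 (0.00609%) held this exact pair, and both were these overlapping Nanog windows. The Zfp42 window held TTTGCAT 185 bases before the start and CCACACCC 75 bases before it. Alone, TTTGCAT was in 4.63% of all promoters, ACAATG in 12.6% and GGGTGTGG in 3.56%. Lin28a held CATTGT 96 bases before its start, 1 of 2 annotated Esrrb promoters held it 33 bases after the start, and L1td1 and Tfcp2l1 held none of the 3. The E-box CACGTG, a MYC motif (7.15% of promoters), and the ESRRB element TCAAGGTCA (0.423%) were in none of the 8 promoters of the 6 genes that matched the table. A match of letters is not evidence of binding, and a missing match says nothing about a factor.

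Zfp42 (ENSMUSG00000051176), which encodes the zinc-finger protein Rex1 and is widely used as a marker of the naive state, had 0 counts in both controls, 4 and 2 counts at 0.1 µg/ml, and 23 and 22 counts at 0.5 µg/ml. On the CPM scale these were 0 and 0, then 0.0552 and 0.0408, then 0.527 and 0.422. The 3 groups did not overlap. Zfp42 was at least 7.87-fold higher at 0.5 µg/ml than the floor of 3 counts per control library (edgeR adjusted p = 7.96e-05), and 9.89-fold higher at 0.5 than at 0.1 µg/ml (log2 3.20 ± 0.48 SE, edgeR adjusted p = 4.76e-04). At 0.1 µg/ml both groups lay at or about the floor, so no fold is given. The call there had an edgeR adjusted p of 0.045, and it held in 3 of 12 alternative analyses that tested it (adjusted p from 0.0455 to 0.403), with 0.0754 under a replicate block.

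Esrrb (ENSMUSG00000021255), an orphan nuclear receptor that occupies many naive-state enhancers in mouse embryonic stem cells, had 1 and 0 counts in control, 383 and 293 with the low dose, then 500 and 475 with the high dose. The low dose gave 5.28 and 5.97 CPM and the high dose 11.5 and 9.11 CPM. Every treated library was far above both controls, and the doses did not overlap. The ratio to control was 556 (95% exact interval 99.4 to 21979, edgeR adjusted p = 2.39e-07) at 0.1 µg/ml and 1015 (182 to 40141, edgeR adjusted p = 1.18e-08) at 0.5 µg/ml. Without control replicate 1 or 2 the fitted log2 change at 0.5 µg/ml was 12.11 or 8.80, against 9.69 with both. Between the doses Esrrb rose 1.83-fold (log2 0.87 ± 0.14 SE, edgeR adjusted p = 5.64e-04).

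Tfcp2l1 (ENSMUSG00000026380), a CP2-family transcription factor that supports naive self-renewal and is also expressed in several epithelia, was the only 1 of the 10 above 1 CPM in untreated organoids. It stood at 12.2 and 12.6 CPM in control, 54.1 and 54.0 CPM at 0.1 µg/ml, and 94.1 and 87.1 CPM at 0.5 µg/ml. The groups were well separated and the libraries within each lay close together. Tfcp2l1 rose 4.36-fold at the low dose (log2 2.12 ± 0.06 SE, edgeR adjusted p = 6.12e-09) and 7.31-fold at the high dose (log2 2.87 ± 0.06 SE, adjusted p = 1.56e-10). The step between the doses was 1.68-fold (log2 0.74 ± 0.05 SE, adjusted p = 1.11e-06).

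Sall4 (ENSMUSG00000027547), a zinc-finger factor of embryonic stem cells and germ cells, had 1 count in each control, 19 and 8 counts at 0.1 µg/ml, and 105 and 145 counts at 0.5 µg/ml. These corresponded to 0.0203 and 0.0199, 0.262 and 0.163, and 2.41 and 2.78 CPM. The groups did not overlap, but the low-dose libraries held few counts. Its ratio to control was 10.6 (95% exact interval 2.66 to 91.8, edgeR adjusted p = 0.00334) at 0.1 µg/ml and 129 (35.3 to 1071, edgeR adjusted p = 3.76e-07) at 0.5 µg/ml. Sall4 rose 12.2-fold from the low to the high dose (log2 3.55 ± 0.27 SE, edgeR adjusted p = 3.16e-06).

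Lin28a (ENSMUSG00000050966), which encodes an RNA-binding protein that blocks maturation of let-7 microRNAs, had 0 and 1 counts in control, 11 and 6 with the low dose, then 76 and 83 with the high dose. In CPM the treated libraries held 0.152 and 0.122 at the low dose and 1.74 and 1.59 at the high dose. The high-dose libraries were about an order of magnitude above the low-dose ones, which were themselves above both controls. The ratio to control was 13.7 (95% exact interval 2.15 to 574, edgeR adjusted p = 0.00976) at 0.1 µg/ml and 167 (29.6 to 6642, edgeR adjusted p = 1.45e-06) at 0.5 µg/ml. Without control replicate 1 or 2 the fitted log2 change at 0.5 µg/ml was 6.22 or 9.47, against 7.07 with both. Between the doses it rose 12.2-fold (log2 3.56 ± 0.33 SE, edgeR adjusted p = 1.07e-05). The low-dose call was lost without control replicate 1 (adjusted p = 0.0586), without 0.1 µg/ml replicate 1 (0.0588), in DESeq2 (0.0509) and with limma on TPM (0.382).

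L1td1 (ENSMUSG00000087166), an RNA-binding protein gene derived from a LINE-1 element, had the highest level of the 10 per transcript at 0.5 µg/ml. It had 0 and 2 counts in control, 787 and 507 with the low dose, then 2415 and 3509 with the high dose, or 10.9 and 10.3 CPM and then 55.3 and 67.3 CPM in the treated libraries. The ranges of the 3 groups lay far apart. The ratio to control was 531 (95% exact interval 147 to 4391, edgeR adjusted p = 6.38e-08) at the low dose and 3074 (851 to 25391, edgeR adjusted p = 3.66e-10) at the high dose. Without control replicate 1 or 2 the fitted log2 change at the high dose was 10.50 or 14.67, against 11.42 with both. Between the doses L1td1 rose 5.79-fold (log2 2.53 ± 0.10 SE, edgeR adjusted p = 5.08e-08).

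Tdh (ENSMUSG00000021953), the mitochondrial threonine dehydrogenase on which mouse embryonic stem cells depend for glycine and one-carbon units, had no count in either control. It held 128 and 66 counts at 0.1 µg/ml and 562 and 692 counts at 0.5 µg/ml, or 1.77 and 1.35 CPM and then 12.9 and 13.3 CPM. The high-dose libraries agreed closely, and the low-dose libraries lay between them and the controls. Against the floor of 3 counts per control library, Tdh was at least 25.8-fold higher at 0.1 µg/ml (edgeR adjusted p = 6.79e-06) and at least 217-fold higher at 0.5 µg/ml (edgeR adjusted p = 1.35e-08). Between the doses it rose 8.41-fold (log2 3.05 ± 0.15 SE, edgeR adjusted p = 4.26e-07).

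Gdf3 (ENSMUSG00000030117), a TGF-beta family ligand of pluripotent cells, had 5 and 0 counts in control, 85 and 57 with the low dose, then 178 and 186 with the high dose. The levels were 0.101 and 0 CPM in control, 1.17 and 1.16 CPM at the low dose, and 4.08 and 3.57 CPM at the high dose. All treated libraries were above both controls. Gdf3 was 23.0-fold higher at 0.1 µg/ml (edgeR adjusted p = 1.42e-04) and 75.5-fold higher at 0.5 µg/ml (log2 6.18 ± 0.45 SE, edgeR adjusted p = 1.15e-06). All control counts were in replicate 1, and the fitted log2 fold change at 0.5 µg/ml was 5.18 without control replicate 2 and 10.68 without control replicate 1, and at 0.1 µg/ml 3.48 and 8.96, against 4.47 with both. From the low to the high dose it rose 3.28-fold (log2 1.71 ± 0.26 SE, edgeR adjusted p = 3.29e-04).

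Gdf3 and Nanog are close neighbours on the same chromosome, with Dppa3 between them in the GENCODE M21 order. Dppa3, a gene of naive cells and the early germ line, had 1 and 0 counts in control, 9 and 2 with the low dose, then 14 and 5 with the high dose, and did not pass the filter. Slc2a3, a glucose transporter gene on the far side of Nanog, had at most 2 counts in any library. On the far side of Gdf3, Apobec1, an RNA-editing enzyme gene used in intestine, was expressed in control and rose 2.02-fold at 0.1 µg/ml (log2 1.01, edgeR adjusted p = 2.36e-06) and 2.63-fold at 0.5 µg/ml (log2 1.40, edgeR adjusted p = 4.47e-08).

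Dppa5a (ENSMUSG00000060461), a KH-domain RNA-binding protein gene used as a marker of embryonic stem cells, was low in all 3 groups. The libraries stood at 0.304 and 0.140 CPM in control, 0.303 and 0.285 CPM at 0.1 µg/ml, and 0.412 and 0.211 CPM at 0.5 µg/ml. All 3 groups overlapped. The log2 change was 0.46 ± 0.49 SE at 0.5 µg/ml (edgeR adjusted p = 0.427), 0.41 ± 0.47 at 0.1 µg/ml (0.544) and 0.05 ± 0.45 between the doses (0.937). Each standard error was as large as its estimate or larger. Expected counts can be divided among near-identical copies, and 1 of the 6 Dppa5a counts was not whole.

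Compared per transcript length (TPM, a share of transcripts scaled to a fixed total), the order of levels changed with dose. In control Tfcp2l1 was highest at 1.69 ± 0.219 TPM and Dppa5a second at 0.62 ± 0.311 TPM, and the other 8 were at 0.03 TPM or less. At 0.1 µg/ml Tfcp2l1 led at 7.01 ± 0.0141 TPM, ahead of L1td1 at 5.24 ± 0.156, Esrrb at 1.94 ± 0.198 and Tdh at 1.10 ± 0.184 TPM. At 0.5 µg/ml L1td1 led at 30.1 ± 4.21 TPM, a level above that of 78.0% of tested genes. Tfcp2l1 followed at 11.3 ± 0.0424, Tdh at 8.77 ± 0.269, Esrrb at 3.30 ± 0.431 and Gdf3 at 2.29 ± 0.375 TPM, and none of these 5 overlapped its neighbour in the order. Dppa5a at 0.825 ± 0.361, Sall4 at 0.65 ± 0.184 and Lin28a at 0.60 ± 0.0566 TPM overlapped in sequence, and Zfp42 at 0.33 ± 0.0424 TPM lay above 14.6% of tested genes. The 10 genes summed to 2.27 to 2.45 TPM in control, 16.8 to 17.1 at 0.1 µg/ml and 55.7 to 60.6 at 0.5 µg/ml. The 4 factor genes summed to 38.9 to 40.4, 526 to 555 and 1734 to 1896 TPM in the same groups. Values per gene do not separate transcripts of the cassette from those of the endogenous factor genes.

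The 8 genes that rose differed in how much of the rise was already present at the low dose. The share of the high-dose rise in mean CPM that was reached at 0.1 µg/ml was 54.7 ± 10% for Esrrb and 53.3 ± 3.36% for Tfcp2l1 (SD propagated from the 2 libraries of each group). Gdf3 had reached 29.6 ± 3.14%. L1td1 had reached 17.3 ± 2.46%, Tdh 11.9 ± 2.29% and Zfp42 10.1 ± 2.67%. Lin28a and Sall4, with 7.67 ± 1.56% and 7.48 ± 2.83%, had the lowest shares on this scale. On the deposited TPM, Sall4 had reached 14.6 ± 4.27%, above Zfp42 at 10.6 ± 2.54% and Tdh at 12.5 ± 2.13%. The factor genes themselves had reached 26.0% (Myc) to 27.8% (Pou5f1), so Esrrb and Tfcp2l1 lay above all 4 factors and 5 of the genes lay below them. Gdf3 at 29.6% stood above the factors in CPM, and its error range overlapped that of each factor. On the deposited TPM it had reached 28.9 ± 4.98%, between Myc at 27.0% and Klf4 at 29.5%. The difference of each gene from the factors was not tested.

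**Figure D2:**
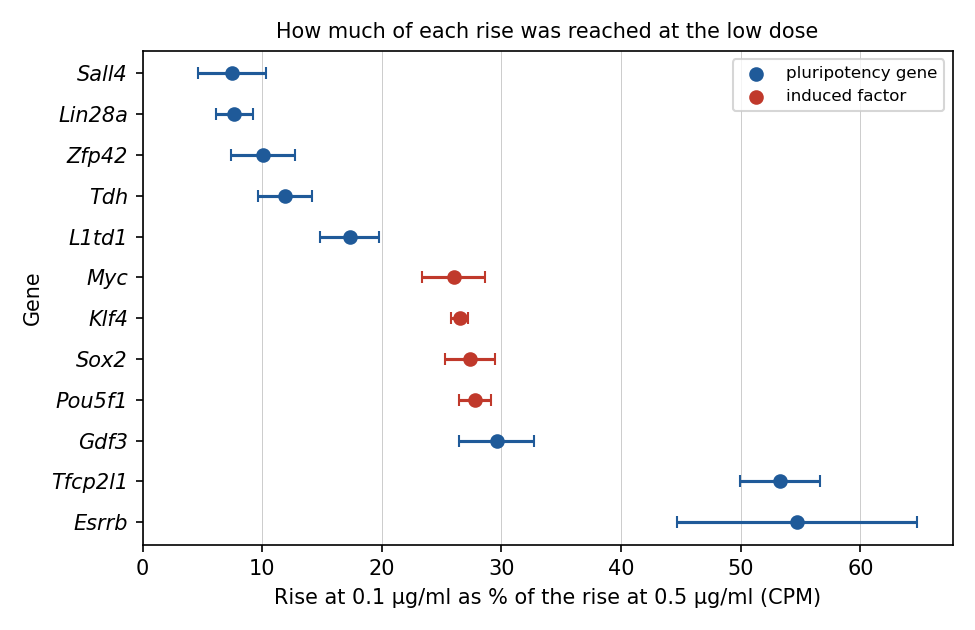
Each point gives the rise in mean CPM from control to 0.1 µg/ml as a percent of the rise to 0.5 µg/ml, with bars for the propagated SD (2 libraries per group), for 8 pluripotency genes and the 4 induced factors. Esrrb and Tfcp2l1 sit above 50%, the factors and Gdf3 between 26.0% and 29.6%, and the other 5 genes below 20%.

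The change between the doses, from the same libraries, is given on the log2 scale. Pou5f1 rose by 1.85 ± 0.05, Sox2 by 1.87 ± 0.08, Klf4 by 1.76 ± 0.06 and Myc by 1.74 ± 0.06 (log2 fold change ± SE). Esrrb at 0.87 and Tfcp2l1 at 0.74 stood below the factors, and Gdf3 at 1.71 lay beside the factors. L1td1 at 2.53, Tdh at 3.05, Zfp42 at 3.20, Sall4 at 3.55 and Lin28a at 3.56 stood above them.

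**Figure D3:**
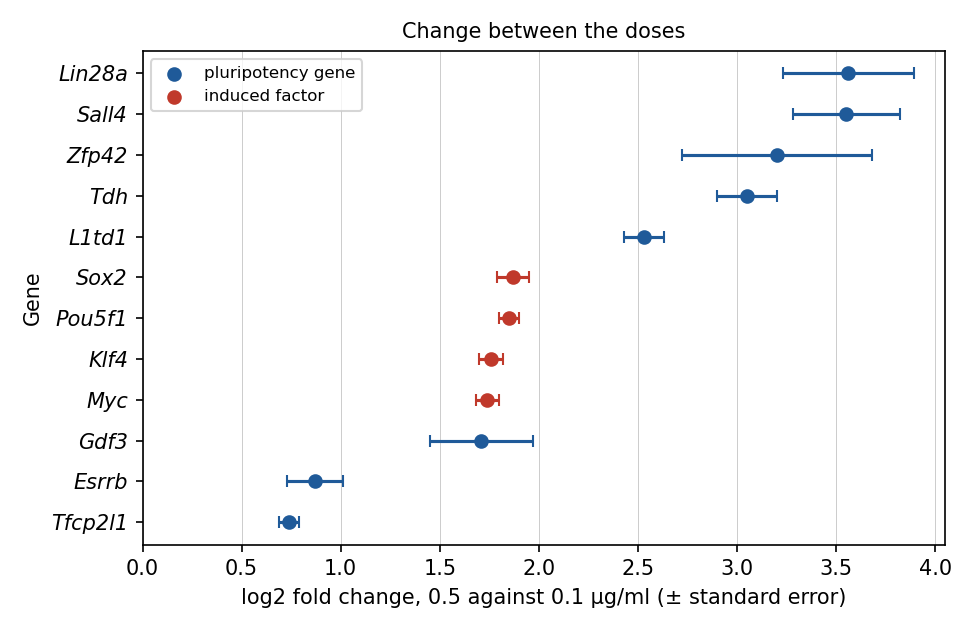
Points are log2 fold changes of 0.5 against 0.1 µg/ml from the edgeR fit, with bars of 1 standard error, for the 8 genes that rose and the 4 factors (2 libraries per group). The factors lie between 1.74 and 1.87, Tfcp2l1 and Esrrb below 1, and L1td1, Tdh, Zfp42, Sall4 and Lin28a from 2.53 to 3.56.

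Other genes of the naive state moved unevenly. Of 25 further naive and ground-state genes, 15 were tested at 0.5 µg/ml against control, of which 9 were higher, 3 lower and 3 did not pass, with a median log2 change of 0.31 against -0.00 over all tested genes, of which 34.4% were higher and 33.1% lower. The low dose gave 4 higher and 4 lower, and 7 did not pass, beside 20.8% and 13.8% of all. Lin28b, the second LIN28 gene, went from 0.0706 ± 0.0434 CPM in control to 0.609 ± 0.119 at 0.1 µg/ml and 4.13 ± 0.693 at 0.5 µg/ml, a 58.5-fold rise against control counts of 5 and 2 (edgeR adjusted p = 3.08e-07). Trim71, a stem cell RNA-binding ubiquitin ligase gene, rose to 1.47 ± 0.287 CPM at 0.5 µg/ml from 1 and 3 counts in the control libraries (edgeR adjusted p = 4.65e-06). Nr5a2, a nuclear receptor of the naive network that intestinal crypts also use, fell 4.44-fold from 38.1 ± 2.02 to 8.56 ± 0.659 CPM, and Klf5, a factor shared by embryonic stem cells and crypts, fell 2.38-fold from 221 ± 30.6 to 92.9 ± 5.09 CPM. Tcl1, Fgf4, Dppa2, Dppa4 and Dnmt3l had at most 3 counts in every library and stood near zero with Nanog.

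**Figure D4:**
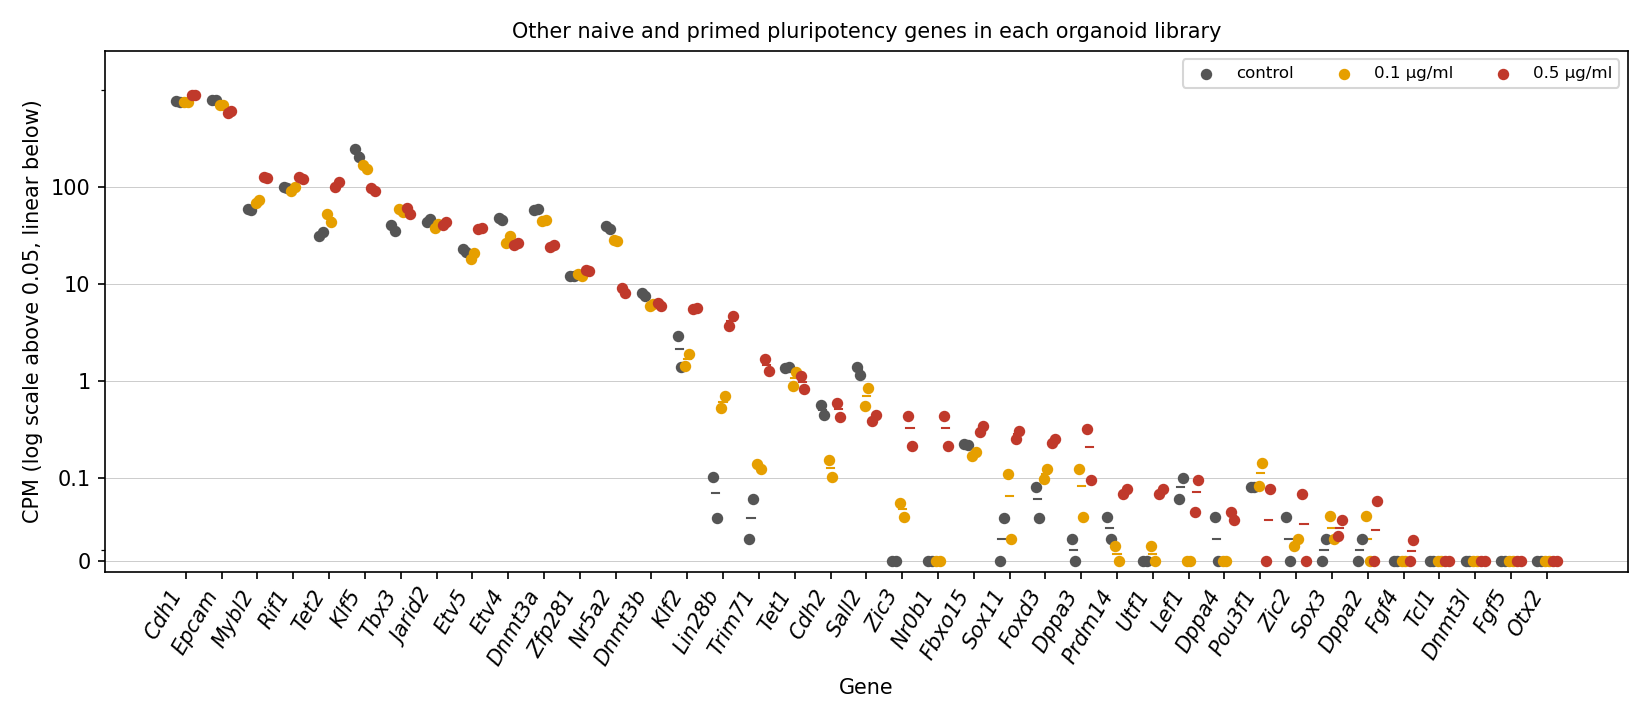
The other naive and primed pluripotency genes are plotted in CPM by library, on an axis that is logarithmic above 0.05 CPM and linear below it, with a bar at each group mean. Lin28b and Trim71 are highest at 0.5 µg/ml, Nr5a2, Klf5 and Dnmt3a are lowest there, and the genes at the right lie at or near 0 in every library.

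Primed-state genes mark the later epiblast. Of 14, 8 were tested at 0.5 µg/ml, with 3 higher, 4 lower and 1 not passing, and a median log2 change of -0.17, beside 34.4% higher and 33.1% lower among all tested genes. At 0.1 µg/ml none was higher and 5 were lower (median -0.36), beside 20.8% and 13.8% of all. Dnmt3a, a de novo DNA methyltransferase gene, fell 2.36-fold to 24.5 ± 0.843 CPM, Dnmt3b fell 1.26-fold, Etv4 fell 1.8-fold and Sall2 fell 3.08-fold, while Etv5 rose 1.69-fold to 37.0 ± 0.411 CPM. Fgf5, Otx2, Zic2 and Sox3 had at most 3 counts in every library.

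Of 14 relatives of the 10 genes by sequence family, 8 were tested at 0.5 µg/ml, with 4 higher, 2 lower and 2 not passing, and a median log2 change of 0.15, beside 34.4% higher and 33.1% lower among all tested genes. Of the Esrrb paralogues, Esrrg fell 6.5-fold from 20 ± 1.0 to 3.07 ± 0.102 CPM and the more abundant Esrra stood at 157 ± 9.43 CPM in control and 182 ± 4.25 CPM at 0.5 µg/ml (1.16-fold, edgeR adjusted p = 0.0115). Of the Tfcp2l1 paralogues, Ubp1 did not pass the test (log2 -0.02, edgeR adjusted p = 0.725) and Tfcp2 rose 1.73-fold to 11.3 ± 0.235 CPM.

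Genes of threonine and one-carbon metabolism, the pathway that Tdh feeds, were all tested. At 0.5 µg/ml 10 of 17 were higher than control, 3 lower and 4 did not pass (median log2 change 0.34), beside 34.4% higher and 33.1% lower among all tested genes. At 0.1 µg/ml 5 were higher and 5 lower (20.8% and 13.8% of all), and between the doses 13 were higher and 1 lower (29.8% and 29.1% of all). Gldc, the glycine decarboxylase gene of the glycine cleavage system, had 1 count in each control library (mean 0.0201 CPM), under the floor of 3 counts. It went to 0.171 ± 0.105 CPM at 0.1 µg/ml and 3.52 ± 0.253 at 0.5 µg/ml, a ratio of 175 (95% exact interval 48.2 to 1453) at the high dose. Amt, of the same system, rose 2.57-fold to 29.0 ± 0.0919 CPM. Gcat, whose enzyme takes the product of Tdh to glycine, was already at 139 ± 7.17 CPM in control and rose 1.15-fold. Shmt1, a cytosolic serine hydroxymethyltransferase gene, fell 1.85-fold, and Mthfd1 fell 1.19-fold.

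In the LIN28 and let-7 axis 8 of 13 genes were higher at 0.5 µg/ml, 4 lower and 1 did not pass, with a median log2 change of 0.33, beside 34.4% higher and 33.1% lower among all tested genes. At 0.1 µg/ml 5 were higher and none lower (20.8% and 13.8% of all). Igf2bp1, an RNA-binding protein gene repressed by let-7 in other cells, had 1 count in each control library (mean 0.0201 CPM), under the floor of 3 counts. It rose to 1.51 ± 0.0321 CPM at 0.5 µg/ml (ratio 75.2, 95% exact interval 20.4 to 627). Igf2bp3 fell 2.1-fold, and Tut4, whose enzyme adds the tail to let-7 precursors, fell 1.69-fold to 15.0 ± 1.86 CPM.

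Gdf3 belongs with the Nodal and Activin pathway. Of 14 tested genes of 18, 2 were higher at 0.5 µg/ml, 7 lower and 5 did not pass (median log2 change -0.15), beside 34.4% higher and 33.1% lower among all tested genes. Nodal and its co-receptor gene Tdgf1 were near zero in all libraries. Inhbb, an activin subunit gene, had no control count and was at least 17.9-fold higher at 1.08 ± 0.0316 CPM, and Smad7, an inhibitor of the pathway, rose 1.3-fold. Acvr1c, a receptor gene that can bind Nodal, fell 4.91-fold to 1.54 ± 0.103 CPM, and Furin, a convertase gene, fell 1.87-fold. Of 9 tested genes of LIF and STAT3 signalling, which sustains naive cells, 7 were higher, 1 lower and 1 did not pass (median 0.23), beside the same 34.4% and 33.1% of all genes. Klf4, an induced factor, is 1 of the 7. The cytokine gene Lif fell 2.99-fold to 3.80 ± 0.196 CPM, Pim1, a STAT3 target, rose 2.46-fold, the kinase gene Jak2 rose 1.1-fold, and Lifr was near zero.

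Of 15 germ cell genes 11 did not pass the filter, and of the 4 tested 3 were higher and 1 lower at 0.5 µg/ml, beside 34.4% and 33.1% of all genes. Piwil2, of the piRNA pathway, rose 16.4-fold to 23.4 ± 2.58 CPM, Prdm1, a germ cell specification factor, 18.6-fold to 63.3 ± 2.59 CPM and Tdrd1 6.05-fold to 28.1 ± 2.48 CPM, whereas the receptor gene Kit fell 5.1-fold. Piwil2, Prdm1 and Tdrd1 were already present in untreated organoids, at 1.43, 3.40 and 4.65 CPM. Whether their rise reflects a germ cell program was not tested. Among 11 genes of the totipotent 2-cell stage, 3 were tested and 2 were higher (34.4% of all genes), at levels under 1 CPM. Of 8 tested trophoblast and primitive endoderm genes 3 were higher, 4 lower and 1 did not pass, beside the same 34.4% higher and 33.1% lower of all genes. Elf5, a trophoblast stem cell factor also used in other epithelia, rose 785-fold against 5 control counts, from 0.0505 ± 0.0432 to 39.6 ± 1.24 CPM, Eomes rose 1.99-fold, Ttr fell 13.2-fold and Cdx2, a trophoblast and intestinal factor, fell 3.03-fold.

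Markers of other cell types moved beside the pluripotency genes. The 13 intestinal epithelial genes were all tested, with 6 higher and 7 lower at 0.5 µg/ml. Among all tested genes 34.4% were higher and 33.1% lower, the comparison for every list in this paragraph. The summed level of the 13 went from 7631 to 7642 CPM in control to 10215 to 10276 CPM. Within that sum Krt8 alone went from 1144 to 3102 CPM. Krt20 rose 3.34-fold and Krt8 2.71-fold, and the intestinal factor gene Cdx1 fell 2.95-fold. The 10 fibroblast genes summed to 1.64 to 1.84 CPM in control and 6.32 to 7.10 CPM at 0.5 µg/ml, with 2 higher and 1 lower of 3 tested, and Col3a1 and Acta2 near zero. The 12 immune genes summed to 4.61 to 4.82 and 14.7 to 15.3 CPM, with 2 higher and 1 lower of 3 tested, and Cd3e, Adgre1, Itgax, Cd8a and Cd4 among those near zero. The 8 endothelial genes summed to 0.709 to 0.957 and 4.89 to 5.22 CPM, with 3 higher of 3 tested, and Cdh5, Kdr, Emcn and Cldn5 near zero. The genes called higher with at least 1 CPM were Col1a1, the locus that carries the cassette, at 3.92 ± 0.203 CPM, Dcn at 1.78 ± 0.412 CPM, Cd68 at 13.5 ± 0.372 CPM and Tek at 3.63 ± 0.543 CPM, and Pdgfrb and Itgam were called lower. Their part in the results on the pluripotency genes was not tested.

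The 3 genes of the 10 with the highest mean CPM at 0.5 µg/ml had close companions in pattern, measured as the Euclidean distance of centred log2(CPM + 0.1) over the 6 libraries. For Tfcp2l1 these were AA467197 (distance 0.209), Batf2 (0.299) and Ceacam1 (0.310), of which Ceacam1 went from 47.9 ± 5.51 CPM in control to 196 ± 2.32 and 383 ± 0.568 CPM with dose. For L1td1 they were Kirrel (0.556), Cyp4f39 (0.653) and Ptgs1 (0.768), and Kirrel went from 0.0601 ± 0.0278 to 13.2 ± 0.690 and 57.9 ± 2.0 CPM. For Tdh they included Thsd1 (0.389) and Slc7a3 (0.444), and Thsd1 went from 0.151 ± 0.0443 to 4.25 ± 0.0493 and 31.1 ± 0.735 CPM. The groups fix most of such a likeness, since all 6 libraries fall into 3 dose levels.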

How the data were processed

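Small intestinal organoids carrying inducible factors were profiled by poly-A, strand-marking RNA-seq with 100 bp paired reads, per the labels' protocols. Tools named by the submitters' processing notes are STAR 2.7.3a, RSEM 1.3.3, FastQC and Trim Galore. The notes list 2 genome builds with no role, so no gene coordinates of the tables are printed, and whether counting used strand is not stated there. The authors deposited expected counts from RSEM and a table of TPM for the same 6 libraries. TPM carries no depth. RSEM divides shared reads among genes, so near-identical copies are uncertain. Genes annotated on the strand opposite Lin28a, Sall4, Tdh and Tfcp2l1 held at most 1 count.

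Expected counts were rounded, filtered by edgeR's filterByExpr (16975 genes with 99.96% of counts) and scaled by TMM (factors 0.964 to 1.04). A quasi-likelihood fit with edgeR 4.0.16 (R 4.3.3) used all 6 libraries with a mean per group and 3 residual degrees of freedom. Tests were two-sided, adjusted by Benjamini-Hochberg over all tested genes. The standard error of an edgeR log2 change is its absolute size divided by the square root of the test's F statistic. It is therefore not an estimate apart from the test. A fold against a group with no count is a bound against 3 counts per library, and with 1 to 3 control counts the ratio has a 95% exact interval. Counting error alone is covered by either. Alternatives used DESeq2 1.42.0, limma 3.58.1 on log2(TPM + 1) and log2(TPM + 0.1), other scalings and filters, a replicate block, only the groups compared, and each library left out. In a test on simulated data (0.5 µg/ml against control, 16030 genes), 50 genes were changed at each size. The share recovered was 78% for a log2 change of 0.5, 92% for 1, and 100% for 2 and 3, and 3.65% of 192 calls were false. The real comparison held many more calls (5839 higher and 5626 lower). The simulated shares therefore need not hold for it, nor for genes near zero in control. Replicates differed by more than sampling noise (chi-square per degree of freedom 7.95 to 8.84).

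The 10 genes and the lists were chosen with earlier results of these data known. Some genes stand in more than 1 list and are counted in each, among them Cdh1 and Epcam in the naive and the intestinal epithelial lists. Lin28b and Trim71 are in the naive and the let-7 lists, and Lin28b is also among the relatives. From each other list the text names the genes past the test at 0.5 µg/ml with at least 1 CPM in a group, or the 2 highest and 2 lowest where more than 5 passed. Gcat, Esrra, Ubp1, Klf4 where listed as a STAT3 target, the neighbours of Gdf3 and Nanog, and the near-zero genes were named after their values were seen. A few genes that these rules name are not reported here. Promoters came from RefSeq (GRCm38.p6), which matched 6 of the 10 genes.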

Additional observations from a re-analysis of the deposited data

How the results depend on the processing

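Each comparison was repeated under up to 16 alternatives. The calls of Esrrb, Tfcp2l1, Tdh, L1td1 and Gdf3 held in all of them, and those of Zfp42, Lin28a and Sall4 at 0.5 µg/ml and between the doses in all that tested them. Zfp42 at 0.1 µg/ml was lost in DESeq2 (adjusted p = 0.103), with limma without a filter (0.403), under the replicate block (0.0754) and with each library left out (0.0824 to 0.173), and Sall4 at 0.1 µg/ml with limma alone (0.439). With limma on filtered TPM, 5 of the 10 genes were called higher in each comparison, since Zfp42, Lin28a and Sall4 fell below that filter. Of all 13313 genes tested there on log2(TPM + 1), 3816 were higher at 0.5 µg/ml, 1945 at 0.1 µg/ml and 3146 between the doses. At 0.1 µg/ml 5 were also called with limma without a filter (1484 higher of all 28962 genes tested) and when only the 2 groups were compared (2910 of 16219). The uncalled log2 change of Dppa5a turned with upper quartile scaling (-0.00327), library totals (-0.00838) and limma without a filter (-0.00223) between the doses. With libraries left out it ranged from -0.48 to 0.47 between the doses, -0.09 to 1.12 at 0.5 µg/ml and -0.06 to 1.05 at 0.1 µg/ml.

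Counts over all genes moved by over 1.5 times with limma on filtered log2(TPM + 1) and log2(TPM + 0.1): 3816 and 3806 higher at 0.5 µg/ml, 1945 and 2024 higher and 1560 and 1484 lower at 0.1 µg/ml, and 3146 and 3115 higher between the doses. Without a filter limma gave 1484 higher and 1036 lower at 0.1 µg/ml. Leaving out a library gave 2352 to 2963 higher and 1448 to 2291 lower at 0.1 µg/ml, against 3531 and 2350 with all. Scaling moved the balance: upper quartile gave 5121 higher and 6592 lower at 0.5 µg/ml and library totals 5100 and 6602, against 5839 and 5626 with TMM, and at 0.1 µg/ml they gave 3037 and 2986, and 3064 and 2854. The cause was not tested. Libraries with the same replicate number showed little shared deviation (correlation of deviations -0.039, 0.0767 and 0.01). With 2 libraries per group this cannot show whether equal numbers share a source. The replicate block changed the call of no gene of the 10 other than Zfp42. Levels under about 0.05 CPM are near the limit of this depth, so Nanog at 1 count and the control levels of Zfp42, Esrrb, Lin28a, Sall4, Tdh and L1td1 are bounded rather than measured, and with 2 libraries per group each p value leans on the spread pooled across genes.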
